A study of Rattus norvegicus with 12 samples.

Results

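Cytosolic ribosomal protein genes were identified on the array by gene symbol: names that start with Rpl or Rps and a digit, with Rplp, or Rpsa, without the S6 kinase genes and without pseudogenes. This gave 8 genes of the 9962 tested. Of these, 5 carry a standard ribosomal protein symbol and 3 are relatives. Counts are given over all 8, and 5 genes are described one by one: Rps16 of the small subunit, Rpl11 of the large subunit, and the relatives Rpl7l1, Rpl3l and Rps4y2. The RefSeq gene table of assembly GRCr8 lists 77 standard symbols of this kind as protein-coding. The other 72 had no row under their gene number in the deposited values. RefSeq also lists 920 pseudogenes under such names, and probes for a ribosomal protein can bind transcripts of near-identical copies, so the values of single genes are uncertain to that extent. The description therefore covers a small part of the ribosome and not the ribosome as a whole.

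Each ribosome joins a small subunit, which reads the mRNA, to a large subunit, which forms the peptide bond. Ribosomal proteins coat and shape the ribosomal RNA, are made in matched amounts, and their mRNAs are translated under control of the mTOR kinase through a pyrimidine tract at the 5′ end. In hippocampal neurons, ribosomes lie in the cell body and also in dendrites, where local protein synthesis serves lasting synaptic change.

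The arrays came from the whole hippocampus of adult male rats, (P102-107 per the labels), of the 4th generation of 2 lines bred on their locomotor response to an unfamiliar environment: bred High Responder (bHR) and bred Low Responder (bLR). There were 6 rats per line and 1 rat per array. No rat carried a transgene or received a treatment according to the labels. The submitters marked bHR replicate 1 and bLR replicate 5 as failed in quality control, which leaves bHR replicates 2 to 6 and bLR replicates 1, 2, 3, 4 and 6 (n = 5 each). All levels are log2 expression values per gene, and differences are bHR minus bLR on that scale. In bulk tissue, fewer cells of a type and less RNA per cell cannot be told apart.

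Array quality varied within both lines. The control probe sets of beta-actin gave a 5′ minus 3′ value between -3.65 and -1.36 on the passing arrays, and it was lowest on bLR replicate 3, bLR replicate 2 (-2.89) and bHR replicate 6 (-2.30). A low value means that less signal was seen at the 5′ end of the transcript. The same 3 arrays, called the 5′-poor arrays here, also stood lowest by the bacterial dap control (-1.82 to -1.36). Markers of brain tissue were high: 10 measured neuronal markers had a median level above that of 95.4% of genes, and 8 astrocyte markers above that of 97.4%. The summed linear level of 9 choroid plexus markers, a neighbouring epithelium, ranged from 493 to 2765 in bHR and from 398 to 1665 in bLR.

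The comparison of the lines asked whether the hippocampus of rats bred for high and low exploration differs in the mRNA of the protein synthesis machinery. None of the 8 ribosomal protein genes passed the test: limma called 0 of 8 at an adjusted p of 0.05 and 0 of 8 had an unadjusted p under 0.05, against 0% and 2.94% of all 9962 genes. In 4 genes the mean was higher in bHR and in 4 it was lower, with a median difference of -0.0022, against 0.00078 over all genes. The lines overlapped in every one of the 8, while 0.291% of all genes had lines that did not overlap. For 8 of 8 the 95% confidence interval lay inside a 1.5-fold difference in either direction, against 98.4% of all genes. For 6 of 8 it lay inside 1.3-fold, a lower share than the 92.8% of all genes.

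**Figure D1:**
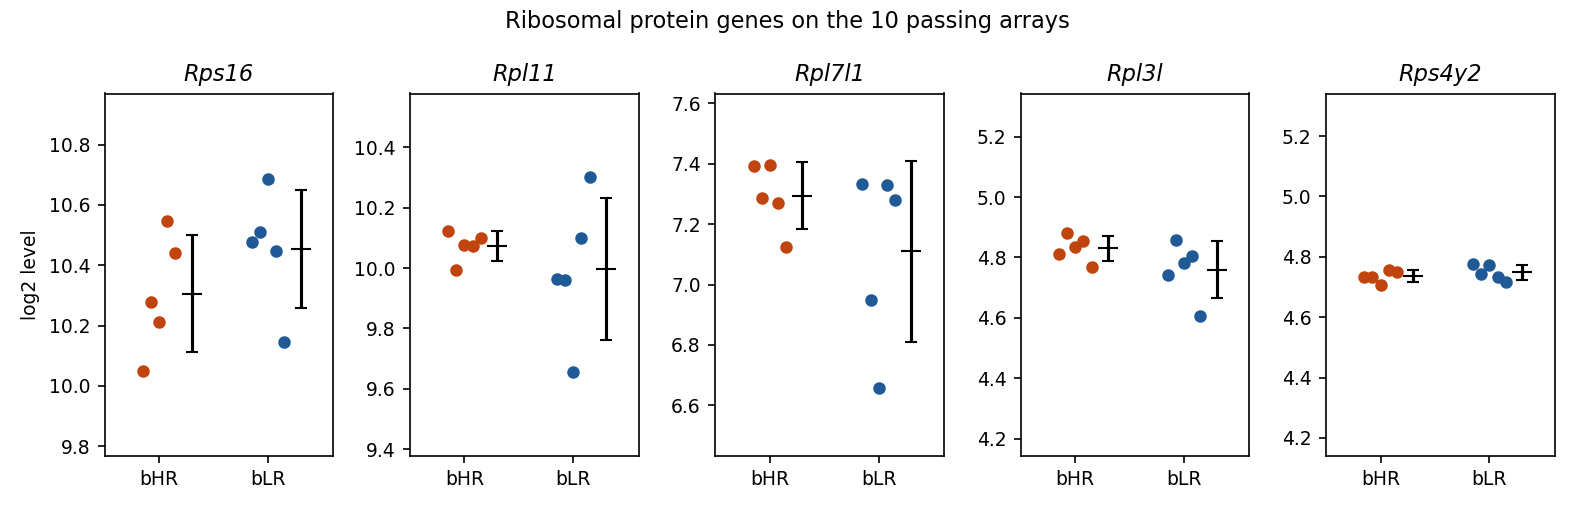
Log2 level of 5 ribosomal protein genes (one panel each, all panels spanning the same height) on the 10 passing arrays, orange for bHR and blue for bLR, with the mean and SD (n = 5) beside the points. The points of both lines overlap in all 5 panels, and Rpl11 and Rpl7l1 spread more widely in bLR.

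Rps16 encodes a small subunit protein whose tail reaches the tRNA held at the peptidyl site. Its levels were 10.05, 10.28, 10.21, 10.55 and 10.44 in bHR replicates 2 to 6, and 10.48, 10.51, 10.69, 10.45 and 10.15 in bLR replicates 1, 2, 3, 4 and 6, the order also used for the genes after it. Of the bLR rats, 4 lay above 4 of the bHR rats, while bLR replicate 6 was among the lowest. Means were 10.31 ± 0.19 (SD, n = 5) for bHR against 10.45 ± 0.20 (SD, n = 5) for bLR, which differ by -0.15 (SE 0.11, 95% confidence interval -0.38 to 0.090; limma, adjusted p = 0.992). It was -0.22 without bLR replicate 6, -0.083 when bHR replicate 2 was left out, and -0.084 without the 5′-poor arrays.

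Rpl11 encodes a large subunit protein that sits with the smallest rRNA of its subunit and, when free of the ribosome, binds the p53 regulator Mdm2. Its levels were 10.12, 9.99, 10.08, 10.07 and 10.10 in bHR, and 9.96, 9.96, 9.66, 10.10 and 10.30 in bLR. The bHR rats lay close together (SD 0.049), within the wider range of bLR (SD 0.23), which runs from bLR replicate 3 to bLR replicate 6. The difference was 0.077 (SE 0.095, interval -0.13 to 0.29; limma, adjusted p = 0.992). It was -0.0079 without bLR replicate 3 and 0.15 without bLR replicate 6.

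Among the 3 relatives only Rpl7l1 had a signal well above the low end of the scale. Rpl7l1 is a paralog of Rpl7 that takes part in the assembly of large subunits. It gave 7.39, 7.29, 7.40, 7.27 and 7.12 in bHR, and 7.33, 6.95, 6.66, 7.33 and 7.28 in bLR. The lowest values were those of bLR replicates 3 and 2, and the other 3 bLR rats lay within the range of bHR. The difference, 0.18 (SE 0.12, interval -0.088 to 0.46), was the widest of the 8 (limma, adjusted p = 0.992). It was 0.071 without bLR replicate 3, 0.055 in a fit that also held the beta-actin value and 0.022 without the 5′-poor arrays.

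Rpl3l, a paralog of Rpl3 known from heart and skeletal muscle, and Rps4y2, a copy of a small subunit gene, had low signal. Only 23.4% of genes had a lower mean than Rpl3l and 20.9% a lower mean than Rps4y2. Rpl3l ran from 4.77 to 4.88 in bHR (median 4.83) and from 4.61 to 4.86 in bLR (median 4.78), with a difference of 0.071 (SE 0.050, interval -0.038 to 0.18; limma, adjusted p = 0.992). It was 0.033 without bLR replicate 6, the array with the lowest value, and 0.13 without the 5′-poor arrays (limma, unadjusted p = 0.0478, adjusted p = 0.981). Rps4y2 ran from 4.71 to 4.76 in bHR (median 4.73) and from 4.72 to 4.77 in bLR (median 4.74), with a difference of -0.012 (SE 0.032; limma, adjusted p = 0.992). Whether their signal exceeds background was not tested.

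**Figure D2:**
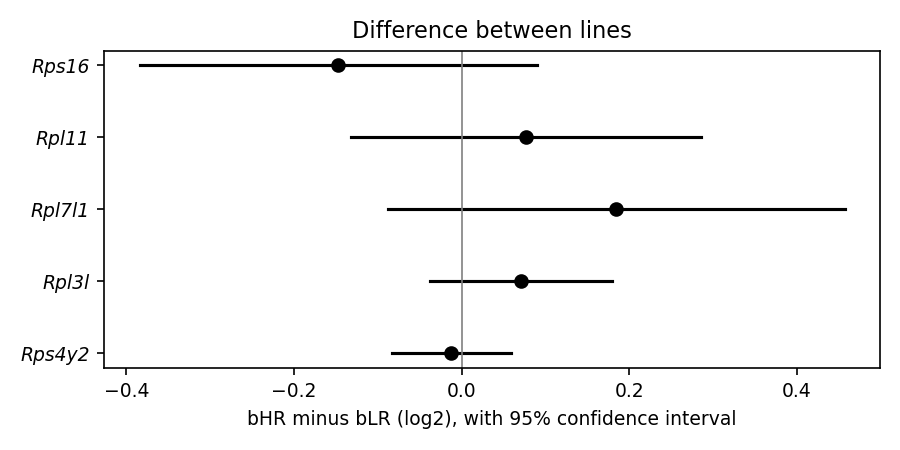
Difference of 5 ribosomal protein genes between the lines, bHR minus bLR on the log2 scale, as a point with its 95% confidence interval from limma (5 arrays per line). All 5 intervals include 0, and the widest, that of Rpl7l1, runs from -0.088 to 0.46.

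Within lines, the spread of the ribosomal protein genes ran from a pooled SD of 0.022 for Rps4y2 to 0.23 for Rpl7l1, with a median of 0.15 against 0.096 over all genes. Rpl7l1 had a wider spread than 93.6% of genes, Rps16 (0.19) than 90.0% and Rpl11 (0.17) than 85.3%, while Rps4y2 had a wider one than only 0.110%. The first principal component of the within-line values of all genes held 45.7% of their variance. It held 92.1% of the within-line variance of Rpl7l1 but 38.7% of that of Rps16 and 16.3% of that of Rps4y2.

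The levels were next set against the beta-actin 5′ minus 3′ value, in a fit over all genes with line as a term. This asked which ribosomal protein genes moved with the control value. A positive slope means a higher level on arrays with less loss of 5′ signal. Of the 8 genes 3 passed (limma, adjusted p under 0.05), against 13.3% of all genes. The slope was positive in 2 of the 3, Rpl7l1 and Rpl11, and negative in 1. Of all genes 5.28% were called with a positive slope and 7.98% with a negative one. The 8 genes thus did not move one way: 4 estimates were positive and 4 negative, with a median slope of 0.024 against -0.0034 over all genes. With only 8 genes, 1 of them barely inside the threshold, this count is not read as particular to them.

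Rpl7l1 had a slope of 0.29 per unit of the beta-actin value (SE 0.029, interval 0.23 to 0.36; limma, adjusted p = 0.000119) and stood 34th of all genes. Its 3 lowest levels, 6.66, 6.95 and 7.12, were those of bLR replicate 3, bLR replicate 2 and bHR replicate 6, the same arrays that had the lowest beta-actin values. Its slope passed whichever single array was left out (10 fits, 0.27 to 0.30; adjusted p at most 0.00741). Without the 5′-poor arrays the slope was 0.18 and did not pass (limma, adjusted p = 0.850).

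Rpl11 had a slope of 0.17 (SE 0.050, interval 0.056 to 0.28; limma, adjusted p = 0.0492), just inside the threshold. Without bLR replicate 3 the slope was 0.076 (adjusted p = 0.582). Without any other single array it was 0.13 to 0.21, and 7 of those 9 fits lost the call by a small margin (adjusted p from 0.0571 to 0.0867). Without the 5′-poor arrays it was 0.012.

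Rps16 had a slope of -0.15 (SE 0.066, interval -0.29 to -0.0029), which did not pass (limma, adjusted p = 0.174). The low-signal genes did not pass either, with slopes of -0.036 for Rpl3l (limma, adjusted p = 0.596) and -0.012 for Rps4y2 (limma, adjusted p = 0.832).

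**Figure D3:**
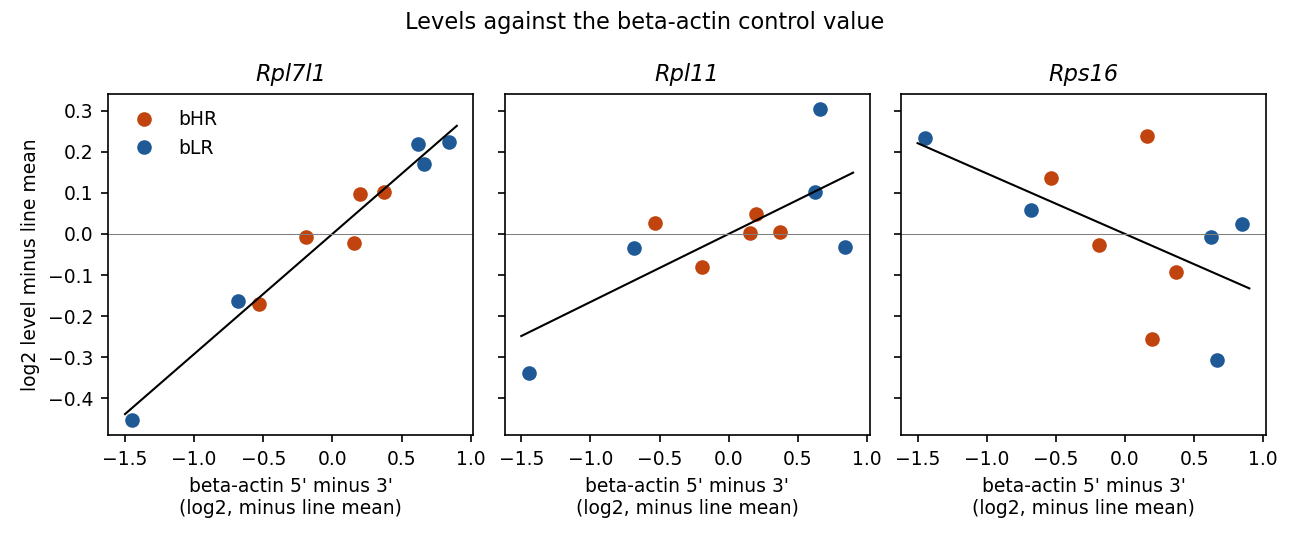
Log2 level minus the mean of the line (vertical axis) against the beta-actin 5′ minus 3′ control value minus the mean of the line (horizontal axis, log2) for 3 ribosomal protein genes, one point per passing array, with the fitted limma slope as a line. Rpl7l1 follows the control value closely with a slope of 0.29, while Rps16 has a slope of -0.15 that did not pass.

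The 8 genes, relatives included, were also compared pair by pair over the 10 arrays, after removal of line means. Of 28 pairs 0 passed after Benjamini-Hochberg adjustment (smallest adjusted permutation p = 0.141 for Pearson's r). Among the 5 genes described here, 5 pairs had an unadjusted permutation p under 0.05 for Pearson's r, 2 with a positive and 3 with a negative r. The permutations moved the centred values freely over all 10 arrays and made no allowance for the line means removed. These p-values can thus be too small, and those near 0.05 could lie above it. The share of pairs of all genes with such a p was not computed, and the first component held 45.7% of the within-line variance of all genes. The count is therefore not read as particular to these genes. Rps16 with Rps4y2, whose within-line SD was only 0.022, gave r = 0.744 (permutation p = 0.0141, adjusted 0.141; Spearman's rho = 0.709, permutation p = 0.0262, adjusted 0.373), and r was 0.771 without the 2 arrays farthest from the median of Rps16. Rpl11 with Rpl7l1 gave r = 0.743 (permutation p = 0.0189, adjusted 0.141; Spearman's rho = 0.515, permutation p = 0.133, adjusted 0.373), and r was 0.348 without bLR replicates 3 and 6. The negative pairs were Rpl11 with Rps16 (r = -0.694, permutation p = 0.0260, adjusted 0.146; Spearman's rho = -0.552, permutation p = 0.104, adjusted 0.373), Rpl11 with Rps4y2 (r = -0.643, permutation p = 0.0347, adjusted 0.157; rho = -0.624, permutation p = 0.0602, adjusted 0.373) and Rpl7l1 with Rps16 (r = -0.644, permutation p = 0.0448, adjusted 0.157; rho = -0.612, permutation p = 0.0669, adjusted 0.373). Without the 2 arrays farthest from the median of the first gene of each, r was -0.183, -0.276 and -0.422. The genes outside the group whose within-line pattern was most like the mean of the 8 were Elp3, the catalytic subunit of the Elongator complex, and Bdh1, an enzyme of ketone body metabolism. They were followed by the phosphatase subunit Ppp6c, Tspyl4, Stoml2, the AMP kinase subunit Prkag1, Clstn1 and Zfp692. Their likeness, given as a description since they were picked for it, was a Pearson's r from 0.898 to 0.956 over the 10 arrays. It was 0.751 to 0.927 without bLR replicates 3 and 4, the 2 arrays farthest from the median of the mean of the 8. The mean itself followed Rpl11 (r = 0.752) and Rpl7l1 (0.596) more than Rps16 (-0.106).

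The locomotor score in an unfamiliar environment, the trait of the breeding, was between 1178 and 1328 beam breaks in the passing bHR rats and between 319 and 557 in the passing bLR rats. Within lines, the slope of level on score was called for 0 of 8 ribosomal protein genes and for 0% of all genes (limma, adjusted p under 0.05), and 0 of 8 had an unadjusted p under 0.05 against 4.12% of all genes. The smallest p of the 8 was that of Rpl11, with 0.11 per 100 beam breaks (SE 0.055, interval -0.0085 to 0.24; limma, adjusted p = 0.989). The slope was 0.031 without bLR replicate 3, the rat with the lowest score, and 0.057 without bLR replicate 6, and it was at most 0.16 when another array was left out. The slope was 0.065 (SE 0.083) for Rpl7l1 and -0.029 (SE 0.074) for Rps16.

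On the 2 failed arrays all 8 ribosomal protein genes lay outside the range of the passing arrays, as most genes did. Of the 8 genes 6 lay below every passing array on both and 2 lay above, where 37.9% of all genes lay below and 45.8% above on bHR replicate 1, and 40.2% below and 35.9% above on bLR replicate 5. Rps16 was at 7.83 and 9.38 on these arrays, and Rpl11 at 8.15 and 9.05. Rpl7l1 was lower too, at 6.35 and 6.29. The low-signal genes lay higher instead: Rps4y2 was at 5.64 and 5.57, above every passing array, and Rpl3l at 5.14 and 5.17. Genes of like signal did the same: of 235 genes with a mean above 9.5, 235 were below every passing array on bHR replicate 1 (median shift -2.52) and 228 on bLR replicate 5 (median shift -1.06). Of the 2491 genes that make up the lowest 25% by mean, 2120 and 1780 lay above every passing array.

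**Figure D4:**
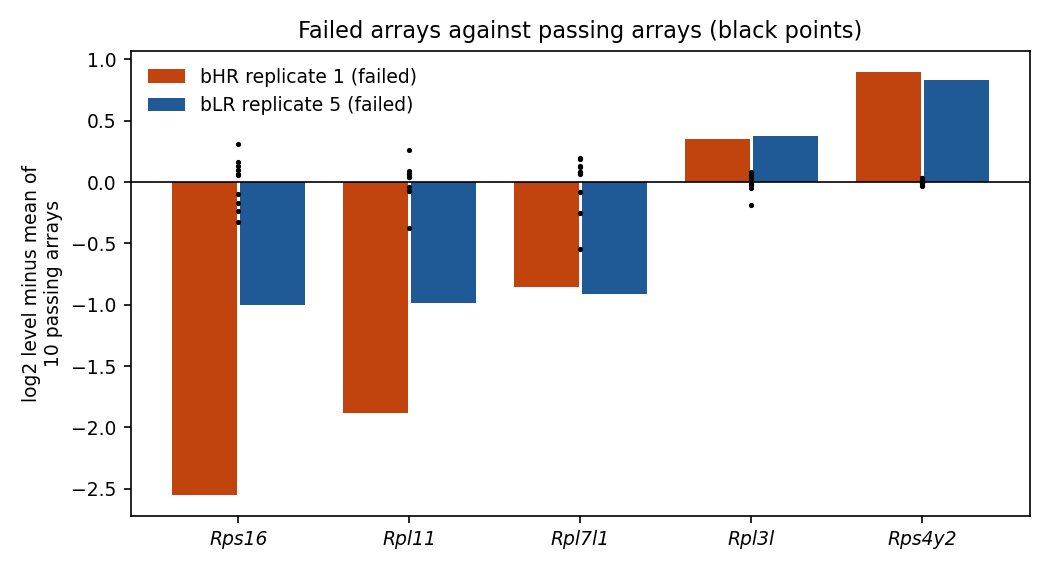
Level of 5 ribosomal protein genes on the 2 failed arrays minus the mean of the 10 passing arrays (log2, bars; orange for bHR replicate 1 and blue for bLR replicate 5), with the 10 passing arrays as black points. Rps16, Rpl11 and Rpl7l1 lie below the passing arrays and Rpl3l and Rps4y2 above them, with the deepest bar, -2.55, for Rps16 on bHR replicate 1.

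Lists of genes around the ribosome held 0 calls between the lines. Of 10 measured mRNAs outside the group known to carry a terminal pyrimidine tract, the mean was higher in bHR for 4 and lower for 6 (median -0.053), and 4 had an unadjusted p under 0.05, against 2.94% of all genes. Among these 4 were Eif3f, an initiation factor subunit, at -0.17 (SE 0.045) and Hnrnpa1, an RNA-binding protein, at -0.39 (SE 0.17), both with an adjusted limma p of 0.992. Hnrnpa1 was the more variable, with a pooled SD of 0.32 and a slope of -0.30 on the beta-actin value.

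Genes named for the S6 kinases, and genes of and around mTOR complex 1, Myc included, were read next. Of 19 measured genes 9 had a higher and 10 a lower mean in bHR (median -0.013), and 0 had an unadjusted p under 0.05. The smallest p-values were those of Rptor, the scaffold of mTOR complex 1, at 0.072 (SE 0.053), Rps6kc1 at 0.069 (SE 0.055) and Tsc1, an inhibitor of the complex, at 0.039 (SE 0.045). Leaving out 1 array took them down to 0.035 (without bHR replicate 4) for Rptor, and to 0.027 for Rps6kc1 and 0.015 for Tsc1 (both without bLR replicate 2). The S6 kinase Rps6kb1 ran from 4.83 to 5.03 in bHR (median 4.86) and from 4.70 to 5.03 in bLR (median 4.86). On the beta-actin value 1 gene of this list had a positive call and 2 had a negative one, against 5.28% and 7.98% of all genes. Of 37 ribosome biogenesis factors 17 were higher and 20 lower in mean (median -0.0021), with 2 at an unadjusted p under 0.05 (2.94% of all genes): Las1l, of rRNA processing, at -0.12 (SE 0.050) and Pes1, of large subunit assembly, at -0.15 (SE 0.068). That of Pes1 was -0.096 without bHR replicate 3. Polr1e, of RNA polymerase I, was next at -0.074 (SE 0.040). Of 12 genes of ribosome quality control and p53 sensing 4 were higher and 8 lower (median -0.031), and the smallest p-values were those of Hbs1l, which rescues stalled ribosomes, at -0.13, Gcn1 at -0.050 and Abce1, which splits ribosomes, at -0.073 (-0.024 without bHR replicate 5).

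The ribosomal proteins of mitochondria, which make a separate ribosome, were more fully measured. Of 61 genes 22 had a higher and 39 a lower mean in bHR (median -0.027), 5 had an unadjusted p under 0.05 (2.94% of all genes) and 0 passed. Of these, the smallest p-values were those of Mrpl54 at -0.23 (SE 0.065), Mrpl19 at -0.13 (SE 0.047) and Mrpl35 at 0.14 (SE 0.053). Without the 5′-poor arrays they were at -0.18, -0.081 and 0.14. On the beta-actin value 3 of the 61 had a positive and 9 a negative call, against 5.28% and 7.98% of all genes. Mrpl54 was among those with a negative call (slope -0.12, limma, adjusted p = 0.0405). Of 47 translation initiation and elongation factors 17 were higher and 30 lower (median -0.023), with 3 positive and 1 negative call on the beta-actin value. Of the 47, 2 had an unadjusted limma p under 0.05 (2.94% of all genes). The lines did not overlap in 1 of the 61 mitochondrial genes and in 1 of the 47 factors, Eif3f, against 0.291% of all genes. After Eif3f, the smallest p-values of the factors were those of Eif2s1 at -0.20 (SE 0.078) and Eif2b1 at -0.15 (SE 0.071; -0.099 without bHR replicate 4). No difference between these lists and the cytosolic genes was tested.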

How the data were processed

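The authors deposited log2 values. Per the submitters' processing notes these were made by RMA (affy 1.54.0), and the design text names a custom probe definition keyed to Entrez gene numbers. RMA includes quantile normalization, so a shift shared by all genes would not be seen. The table held 10019 rows, and tests covered all but 57 control rows. The number in each name was matched to RefSeq (GRCr8), which named 9831 genes and all 8 ribosomal ones. Coordinates are not printed, since no source gives a build for the values. All 12 columns were matched to samples. Array values have no read depth, and the 5 passing arrays per line limit the precision. Nothing in the labels says that rats came from separate litters, so p-values measure the spread between these rats.

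The test was limma 3.58.1 under R 4.3.3 (lmFit, eBayes, Benjamini-Hochberg over 9962 genes) with line as the term, and with the beta-actin value or the locomotor score, centred within line, added. Pairs of genes used 100000 permutations, two-sided. Counts cover all 8 members, but the single values of 3 of them and of some list genes are not reported here. Named were the other 5 members, up to 3 genes with the smallest p of each related list, and the 8 genes most like the members. Members and lists were chosen with earlier results of these data known. On simulated arrays for bHR against bLR with 9962 genes, of which 200 were changed, limma recovered 66 of 67 changed by 0.5. Genes were simulated independently, without the component shared by the real arrays, and changes below 0.5 were not simulated. Recovery of differences as small as those of the 8 genes is thus not known. Alternatives covered arrays left out or added, filters, scaling, prior, covariates and a block.

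The number in the sample titles is shared by 3 pairs of passing arrays across lines. Deviations from the line mean correlated at -0.334, 0.263 and 0.409 within these pairs. So few pairs cannot show whether rats with a shared number were related or handled together. The reported fits do not pair the rats.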

Additional observations from a re-analysis of the deposited data

How the results depend on the processing

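Between the lines, the counts of genes and of ribosomal protein genes called stayed at 0 under every alternative run, those that leave out 1 array included. The median difference of the 8 genes, -0.0022, was -0.15 with all 12 arrays, -0.034 with all 12 and array weights and -0.037 without the 5′-poor arrays (bLR replicates 2 and 3 and bHR replicate 6), and ran from -0.027 to 0.013 when 1 array was left out. With all 12 arrays the sign turned for Rpl11 (-0.086), Rps4y2 (0.0011) and Gcn1 (0.030), and 2 genes in place of 29 had lines that did not overlap. Without the 5′-poor arrays Rpl11 was at -0.054, and leaving out 1 array gave -0.0079 to 0.15 for it. The residual component as a covariate leaves the differences as they are by construction. With the title number as a replicate block the median difference was 0.00058 and 0 genes passed. Rps16 differed by -0.37 (limma, adjusted p = 0.185) and Rpl7l1 by 0.38 (limma, adjusted p = 0.237). The line difference in that fit rests only on the 3 pairs of passing arrays with a shared number, replicates 2, 3 and 4 of both lines. Of these, bLR replicates 2 and 3 were 5′-poor.

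For the slope on the beta-actin value, 1321 genes and 3 of the 8 passed. Leaving out 1 array gave 713 to 1302 genes and 1 to 3 of the 8, with 713 without bLR replicate 3. Without the 5′-poor arrays 0 genes and 0 of the 8 passed, on 7 arrays with a narrow range of that value, and the slope was 0.0051 for Rps4y2. The call of Rpl11 also ended with median centring (adjusted p = 0.0512) and a trended prior (0.0511). For the slope on locomotor score the counts stayed at 0, and with a term for beta-actin the sign turned for Rpl7l1 (-0.016) and Rps16 (0.012). Leaving out 1 array turned signs of slopes near 0: they ran from -0.092 to 0.12 for Rpl7l1, -0.067 to 0.059 for Rps16 and -0.0036 to 0.013 for Rps4y2. Rpl3l and Rps4y2 had low signal, and whether it exceeds background was not tested.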
